A study of Homo sapiens with 5 samples.

Results

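The 37 genes of the human mitochondrial genome were examined in DAOY cells, an established line of sonic hedgehog (SHH) medulloblastoma, after siRNA treatment against circ_63706, a circular RNA of the PCNT gene. The genes were chosen by their names, which begin with MT-, out of 60504 genes in the deposited table, and they comprise 13 mRNAs, 2 rRNAs and 22 tRNAs. Their division by strand was taken up because the level of MT-ND6 was known to differ in this same contrast, so the values of the 37 genes are given as a description. Calls from the fits over all genes are counted in 1 place for them, beside the share or number of all genes called, and support nothing. Cells of 1 line, in serum-containing medium, were transfected for 48 h with 20 nM siRNA, either the non-targeting control si-NC or si-circ_63706, by the same lipid reagent. Total RNA was sequenced, giving 2 si-NC libraries and 3 si-circ_63706 libraries. The sources used here do not say which siRNA against circ_63706 each of the 3 libraries received, nor whether the libraries came from separate cultures, so the spread between libraries may be technical. In bulk RNA, fewer cells of a type and less RNA per cell cannot be told apart.

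The mitochondrial genome is a small circle whose strands differ in base composition and are called heavy and light. Each strand is transcribed into long precursors by POLRMT, the mitochondrial RNA polymerase, with the help of TFAM and TFB2M, and the precursors are cut apart mostly at the tRNAs that lie between the longer genes. Most mRNAs and both rRNAs belong to the heavy-strand precursor, whereas the light-strand precursor holds a single mRNA, MT-ND6, together with tRNAs and long stretches antisense to heavy-strand genes, which are normally degraded. All of the 13 proteins are subunits of the respiratory chain or of the ATP synthase.

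On the GENCODE 29 annotation of GRCh38, 28 of the 37 genes are heavy-strand genes, which are annotated on the plus strand, and 9 are light-strand genes on the minus strand. The heavy-strand genes are 12 mRNAs, 2 rRNAs and 14 tRNAs. The light-strand genes are MT-ND6 and 8 tRNAs, MT-TQ, MT-TA, MT-TN, MT-TC, MT-TY, MT-TS1, MT-TE and MT-TP. The difference between transcripts of the strands can be read in the first 30 bases of MT-ND5 and MT-ND6. These bases are printed from the reference sequence in the 5′ to 3′ direction of each transcript, with every G in capitals. They are shown because these genes lie side by side on opposite strands.
MT-ND5: ataaccatGcacactactataaccacccta
MT-ND6: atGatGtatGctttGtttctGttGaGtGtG
The sequences lie at chrM:12337-12366 (plus strand) and chrM:14644-14673 (minus strand). The start of MT-ND5, a heavy-strand transcript, holds 1 G, and that of MT-ND6, a light-strand transcript, holds 9. Genes are named here by the strand they are transcribed from. A transcript is complementary to that strand, so the printed bases are not those of the strand named. Over the whole gene, G made up 35.6% of MT-ND6 and 6.28% to 16.2% of the heavy-strand mRNAs, and C made up 7.05% of MT-ND6 and 29.5% to 36.0% of the heavy-strand mRNAs.

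The deposited values are TPM, transcripts of a gene per 1000000 transcripts, with reads divided by gene length and every library brought to an equal sum. Counts of reads are not part of the table, and neither depth nor counting error can be given for any value. The 37 genes took 0.575% and 0.585% of TPM under si-NC against 0.669%, 0.697% and 0.706% under si-circ_63706, and these groups did not overlap. As a share of the TPM of protein-coding genes, the 13 mRNAs took 1.88% ± 0.00546 under si-NC (SD, n = 2) against 2.38% ± 0.0157 under si-circ_63706 (SD, n = 3). Protein-coding genes as a whole took 29.02% and 26.1% of TPM, so the denominator moved in the opposite direction. The number of genes above 0 was 29748 and 29253 under si-NC against 33905 to 34347 with si-circ_63706, and its part in the results was not tested. Of 8 marker genes of SHH medulloblastoma, 6 had a mean of at least 1 TPM, while GLI1 and ATOH1 were below it. The markers of glia, immune cells and endothelium were each below a mean of 1 TPM, and of 3 neuron markers, SYP was above it, with means of 1.51 TPM under si-NC and 1.62 TPM under si-circ_63706. PCNT, the host gene of circ_63706, had 9.96 and 10.4 TPM under si-NC against 7.54 to 8.80 TPM under si-circ_63706, and the table has no separate value for the circular RNA. These values are not centred, and the median log2 fold change of all genes tested was -0.16. From qPCR in DAOY and other lines, the paper reports that the knockdown did not affect PCNT.

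All 22 tRNAs were listed at 0 in all 5 libraries, on either strand. Their annotated lengths run from 59 to 75 bases. Of 878 other genes with lengths in this range, 4 were above 0 in any library, and of 2634 genes of at most 100 bases, 6 were. A value of 0 is therefore what the table holds for nearly every gene this short, and it says nothing about the level of the tRNAs. MT-ND6 is consequently the only light-strand gene with values, and every statement on the light strand below rests on this gene alone.

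The other 15 genes, the 13 mRNAs and 2 rRNAs, had a mean of at least 1 TPM and entered the fit. Among them the mRNAs of complex IV, cytochrome c oxidase, had the highest levels. MT-CO3, MT-CO1 and MT-CO2 had 2055 ± 30.2, 1513 ± 26.5 and 1013 ± 0.587 TPM with si-NC (SD, n = 2), and their libraries did not overlap with each other or with any other gene. MT-RNR2, the RNA of the large mitochondrial ribosomal subunit, followed with 222 ± 35.5 TPM, and then MT-ND3 with 177 ± 8.21 and MT-ATP8 with 148 ± 14.2 TPM. MT-RNR1, MT-ATP6, MT-ND4L and MT-CYB lay close together, at 109 ± 20.1, 107 ± 8.61, 105 ± 12.9 and 96.8 ± 3.47 TPM. MT-CYB was below MT-ATP6 in both si-NC libraries. MT-ND5, MT-ND2 and MT-ND1, at 53.2 ± 5.44, 52.5 ± 5.40 and 46.1 ± 4.10 TPM, lay below MT-ND4 at 75.2 ± 8.01 TPM. MT-ND1 was below MT-ND5 and MT-ND2 in both si-NC libraries. MT-ND6 had the lowest level of the 15 genes, at 23.9 ± 0.841 TPM. MT-ND6 was the lowest of these genes in every si-circ_63706 library as well.

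**Figure D1:**
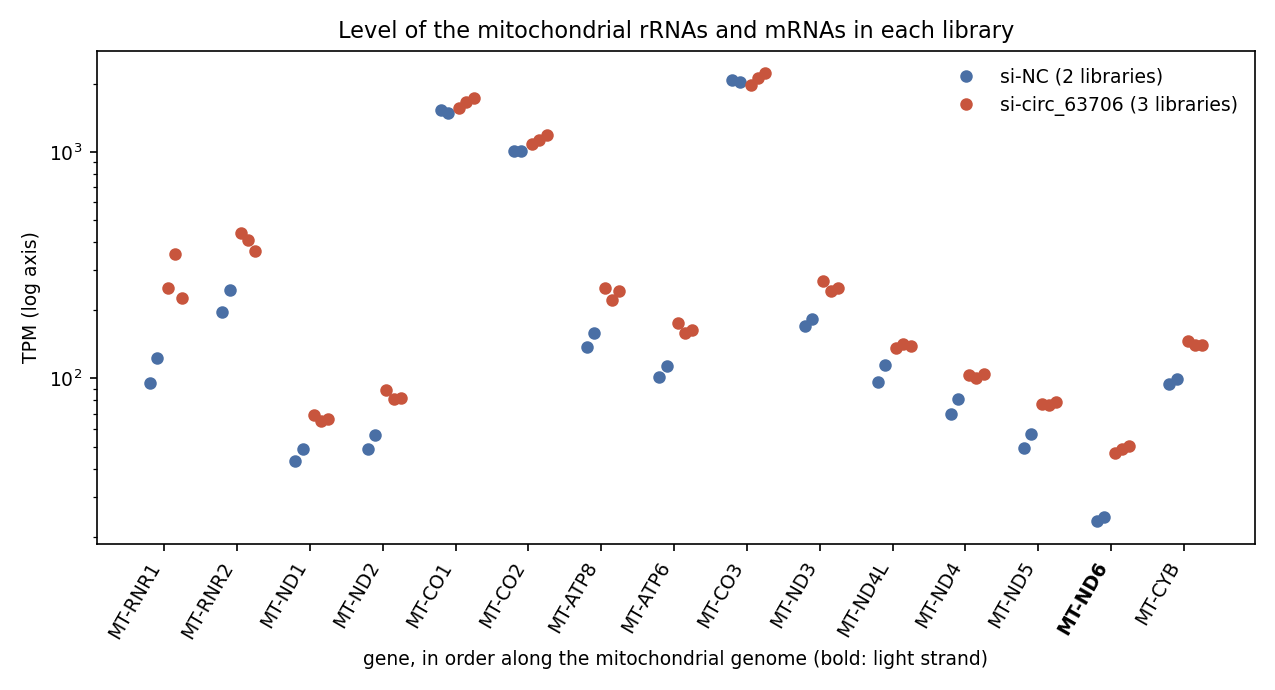
TPM of the 15 mitochondrial rRNAs and mRNAs on a log axis, in gene order along the genome, with 1 point per library for si-NC (2) and si-circ_63706 (3). MT-ND6, in bold, is the lowest gene in every library, and MT-CO3 is the gene in which the groups overlap.

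MT-ND6 encodes a membrane subunit of complex I, NADH dehydrogenase, and lies at chrM:14149-14673 on the minus strand (ENSG00000198695). It had 23.4 and 24.5 TPM under si-NC against 46.8, 48.6 and 50.5 TPM under si-circ_63706. Every si-circ_63706 library was therefore above both si-NC libraries, and the mean with si-circ_63706 was 203% of that with si-NC. Its log2 fold change, on the scale of log2(TPM + 1) as for all fold changes here, was 0.99 (standard error 0.0516). TPM are shares of a total, and the median log2 fold change of the 12710 genes tested was -0.16. When the libraries were centred, by taking from each the median of its log2 ratios to the average library, the median of all genes was 0.00 and the log2 fold change of MT-ND6 was 1.15.

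The heavy-strand mRNAs of complex I were also higher with si-circ_63706, by less than MT-ND6 on the log scale. MT-ND5, which ends at chrM:14148, the base next to MT-ND6, had 49.4 and 57.1 TPM under si-NC against 77.4, 76.1 and 78.4 TPM under si-circ_63706, or 0.53 higher on the log2 scale (standard error 0.0659). MT-ND2 had 48.7 and 56.3 TPM under si-NC against 88.6, 81.4 and 81.6 TPM under si-circ_63706, or 0.67 higher on the log2 scale (standard error 0.0740). In each of these genes the si-NC libraries differed by several TPM, library 1 being the lower, and the groups did not overlap. MT-ND1 had 43.2 and 49.01 TPM under si-NC against 69.2, 64.5 and 66.4 TPM under si-circ_63706, and MT-ND3 had 171 and 183 TPM against 271, 242 and 250 TPM. MT-ND4 had 69.5 and 80.8 TPM under si-NC against 103.8, 100.2 and 105 TPM under si-circ_63706, and MT-ND4L, whose gene overlaps that of MT-ND4, had 96.0 and 114 TPM against 137, 142 and 140 TPM. The log2 fold changes of these 4 genes, which complete complex I, were 0.53, 0.52, 0.45 and 0.41, each with groups that did not overlap. MT-CYB, the complex III subunit and the next mRNA along the genome, had 94.4 and 99.3 TPM under si-NC against 147, 140 and 141 TPM under si-circ_63706, or 0.55 higher on the log2 scale (standard error 0.0466). Of the ATP synthase subunits, MT-ATP8 had 138 and 158 TPM under si-NC against 251, 222 and 244 TPM under si-circ_63706, and MT-ATP6 had 101 and 113 TPM against 175, 159 and 163 TPM. Their log2 fold changes of 0.69 and 0.62 were, with that of MT-ND2, the highest among the heavy-strand mRNAs, and again no library of one group lay within the other.

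The complex IV mRNAs, which are heavy-strand transcripts as well, had the smallest log2 fold changes of the 15 genes, although the groups of MT-CO1 and MT-CO2 did not overlap and MT-CO2 was among the genes called higher. MT-CO1 had 1531 and 1494 TPM under si-NC against 1568, 1671 and 1730 TPM under si-circ_63706. This amounts to 0.13 on the log2 scale (standard error 0.0562), which became -0.07 under quantile normalization. MT-CO2 had 1012 and 1013 TPM under si-NC against 1085, 1136 and 1188 TPM under si-circ_63706, or 0.16 higher on the log2 scale (standard error 0.0524). MT-CO3 had 2077 and 2034 TPM under si-NC against 1977, 2124 and 2231 TPM under si-circ_63706, so that its lowest si-circ_63706 library was below both si-NC libraries. Its log2 fold change was 0.04 (standard error 0.0622), and it was -0.0045 without si-circ_63706 library 3. After centring, the log2 fold changes of MT-CO1, MT-CO2 and MT-CO3 were 0.29, 0.32 and 0.19. The 3 mRNAs together made up 84.7% and 82.9% of the TPM of the 13 mRNAs under si-NC against 77.2%, 79.4% and 79.6% under si-circ_63706.

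The rRNAs, which lie at the start of the heavy-strand precursor, had fold changes on either side of that of MT-ND6. MT-RNR1, the RNA of the small ribosomal subunit, had 95.2 and 124 TPM under si-NC against 251, 354 and 226 TPM under si-circ_63706, or 1.32 higher on the log2 scale (standard error 0.200). MT-RNR2 had 197 and 247 TPM under si-NC against 439, 409 and 364 TPM under si-circ_63706, or 0.87 higher on the log2 scale (standard error 0.114). The estimate of MT-RNR2 and that of MT-ND6 differed by little more than the standard error of MT-RNR2. The spread between libraries was wider than for the mRNAs, and without each library in turn the log2 fold change lay between 1.13 and 1.504 for MT-RNR1 and between 0.71 and 1.03 for MT-RNR2, against 0.96 to 1.03 for MT-ND6. Whether and how ribosomal RNA was depleted before sequencing of these libraries is not given in the sources used here.

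**Figure D2:**
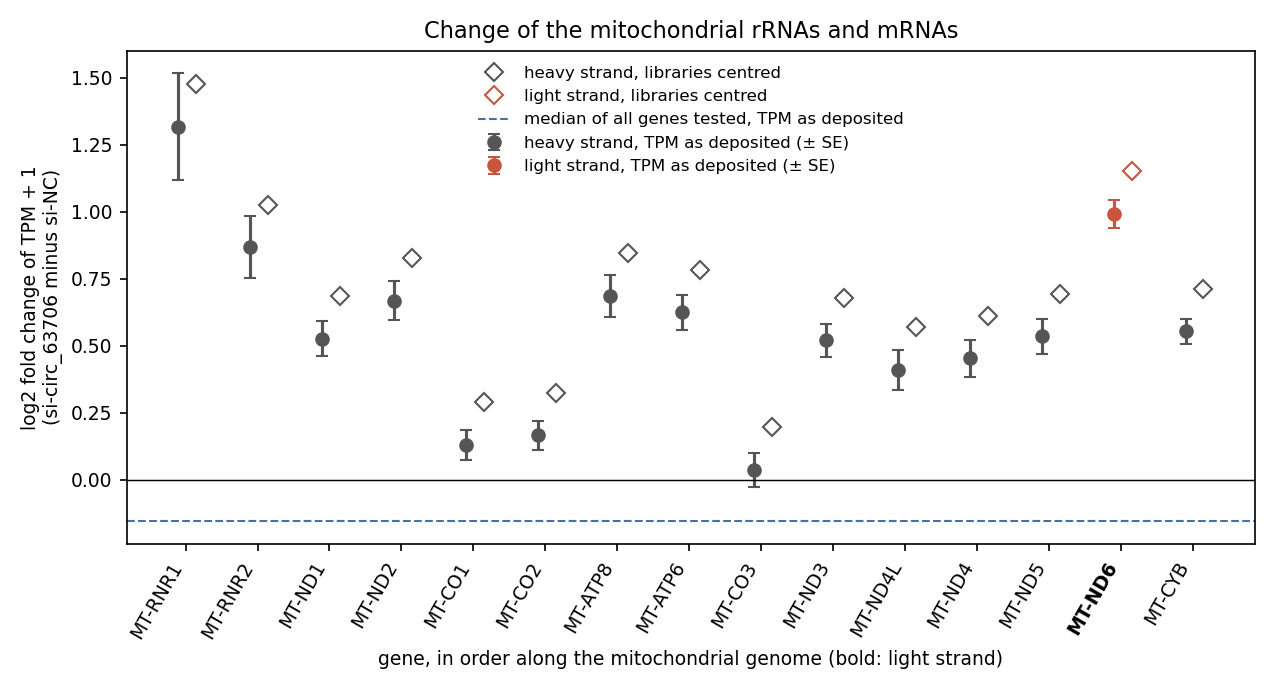
Log2 fold change of TPM + 1, si-circ_63706 minus si-NC, for the 15 genes in gene order, with circles and standard errors for TPM as deposited and diamonds for centred libraries. MT-ND6, the light-strand gene, stands at 0.99, above all 12 heavy-strand mRNAs and between MT-RNR1 and MT-RNR2, and the dashed line marks the median of all genes tested at -0.16.

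Of the 15 genes, 14 had every si-circ_63706 library above both si-NC libraries, and the groups of MT-CO3 overlapped. Over all genes tested, 8.93% had every si-circ_63706 library above both si-NC libraries. With limma and Benjamini-Hochberg adjustment over all 12710 genes at 0.05, 13 of the 15 were called higher and MT-CO1 and MT-CO3 were not called, where 4.16% of all genes were called higher and 35.4% lower. After centring all 15 were called higher, where 13.1% of all genes were called higher and 13.7% lower. The number called was 12 with no minimum TPM, quantile normalization, no mean-variance trend or a replicate block. In these fits 292, 1584, 515 and 325 of all genes were called higher. It was 14, 12 and 12 without si-circ_63706 library 1, 2 or 3, where 578, 350 and 385 of all genes were called higher. Since the contrast behind these counts is the one in which the strand division was noticed, nothing is read from them. The median log2 fold change was 0.52 for the 12 heavy-strand mRNAs, 0.53 for the 9 outside complex IV, whose range was 0.41 to 0.69, and 0.13 for the 3 of complex IV.

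Ratios within a library do not depend on how that library was scaled. MT-ND6 amounted to 0.430% and 0.450% of the summed TPM of the 12 heavy-strand mRNAs under si-NC against 0.787%, 0.790% and 0.787% under si-circ_63706. The si-circ_63706 libraries were thus nearly equal in this ratio and well above the si-NC libraries, with a log2 difference of 0.84 and a spread of 0.0272 within groups (SD of the log2 ratio). This sum is dominated by complex IV. Against the 9 other heavy-strand mRNAs, MT-ND6 amounted to 2.88% and 2.69% under si-NC against 3.55%, 3.96% and 3.98% under si-circ_63706, a log2 difference of 0.46 with a spread of 0.0856.

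Against its neighbours on the genome, MT-ND6 was at 47.3% and 43.0% of MT-ND5 under si-NC against 60.5%, 63.9% and 64.4% under si-circ_63706, and the log2 difference was 0.48. Against MT-CYB the log2 difference was 0.46, from 24.7% in either si-NC library to 31.8%, 34.8% and 35.8% under si-circ_63706. Against MT-RNR2, MT-ND6 was at 11.9% and 9.94% under si-NC against 10.7%, 11.9% and 13.9% under si-circ_63706. These groups overlapped, and the log2 difference of 0.15 was smaller than the spread of 0.187 within groups. The heavy strand was itself uneven: the 9 mRNAs outside complex IV amounted to 17.6% and 20.1% of the complex IV mRNAs under si-NC against 28.5%, 24.9% and 24.6% under si-circ_63706, a log2 difference of 0.47. The log2 difference between MT-ND6 and these 9 mRNAs, 0.46, was thus close in size to that between the 9 and complex IV.

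**Figure D3:**
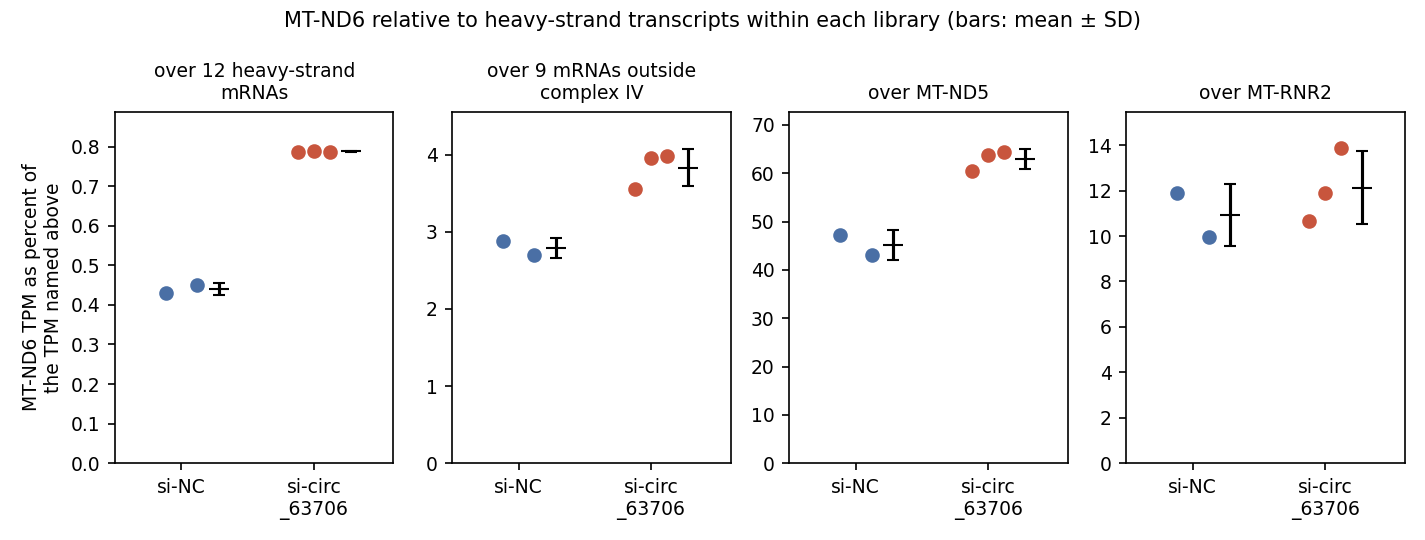
MT-ND6 TPM as a percent of 4 heavy-strand references in each library (points), with the mean and SD of each group; every axis starts at 0. The groups lie apart over the 12 mRNAs, over the 9 mRNAs outside complex IV and over MT-ND5, and overlap over MT-RNR2.

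In TPM rather than in ratios, the difference of MT-ND6 lay among those of the 6 other complex I mRNAs. Its mean was 24.7 TPM higher with si-circ_63706 (standard error 1.21), beside 24.1 TPM (3.91) for MT-ND5, 20.6 TPM (3.20) for MT-ND1, 27.9 TPM (5.85) for MT-ND4, 31.4 TPM (4.50) for MT-ND2, 34.4 TPM (9.24) for MT-ND4L and 77.4 TPM (10.3) for MT-ND3. As an estimate, the difference of MT-ND6 was above those of MT-ND1 and MT-ND5 and below those of the other 4 genes. Its gaps to MT-ND5 and MT-ND4 were smaller than the standard errors of those genes. The gap to MT-ND4L was about as large as the standard error of that gene. The order beside these genes is therefore not settled. The si-NC level of MT-ND6 was below that of all 6. The largest additions were 182 TPM (33.2) for MT-RNR2 and 168 TPM (41.8) for MT-RNR1.

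Several values share reads with other features. The strand setting of the authors' counting is not given in the sources used here, and without strand the reads of MT-ND6 and of heavy-strand RNA antisense to it cannot be told apart, nor can light-strand RNA antisense to the heavy-strand genes be told apart from their mRNAs. MT-ATP8 and MT-ATP6 share 46 bases, MT-ND4L and MT-ND4 share 7, and MT-ATP6 and MT-CO3 share 1. The nuclear genome also holds copies of mitochondrial sequence. The table lists 373 pseudogenes named after a mitochondrial gene, of which 4 had a mean of at least 1 TPM. The one with the highest mean over all 5 libraries was MTATP6P1 at chr1:633696-634376, which is 98.5% identical to MT-ATP6 over 681 bases. Under si-NC alone its mean of 17.5 TPM was below the 23.0 TPM of MTCO1P12. The choice thus drew on the group in which MTATP6P1 was higher, and its direction is given as a description. MTATP6P1 had 16.1 and 18.9 TPM under si-NC against 30.1, 30.4 and 29.04 TPM under si-circ_63706, apart and in the same direction as MT-ATP6. MTCO1P12, in the same stretch of chromosome 1 and named after its values were seen, is 98.7% identical to MT-CO1. It had 23.5 and 22.5 TPM under si-NC against 19.7, 22.0 and 22.1 TPM under si-circ_63706. All 3 si-circ_63706 libraries were below both si-NC libraries for this copy, while MT-CO1 itself was slightly higher.

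The other 369 copies had a mean under 1 TPM. Of them, 73 were above 0 in si-NC library 1 and 73 in library 2, against 199, 195 and 204 under si-circ_63706, or 19.8% against 52.8% to 55.3%. Their summed TPM was 5.63 and 5.65 under si-NC against 15.4, 16.4 and 16.8 with si-circ_63706, with a ratio of the means of 2.88. For 12289 other pseudogenes under 1 TPM, the share above 0 was 25.3% to 26.9% under si-NC against 38.3% to 40.2% under si-circ_63706, and the summed TPM had a ratio of 1.12. The 26 copies of MT-ND6 summed to 0.12 and 0.24 TPM under si-NC against 1.19, 1.93 and 1.61 TPM under si-circ_63706, and those of MT-CO1, whose mitochondrial gene had a log2 fold change of 0.13, to 0.33 and 0.31 TPM and to 1.45, 1.36 and 2.18 TPM. The ratios for the copies of MT-ND6 and MT-CO1, 8.76 and 5.20, were the highest by gene copied. The lowest was 1.70 for the copies of MT-ND4L, whose groups overlapped. The summed values of the 369 copies moved with the group in the same libraries as MT-ND6, and their part in its values was not tested.

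**Figure D4:**
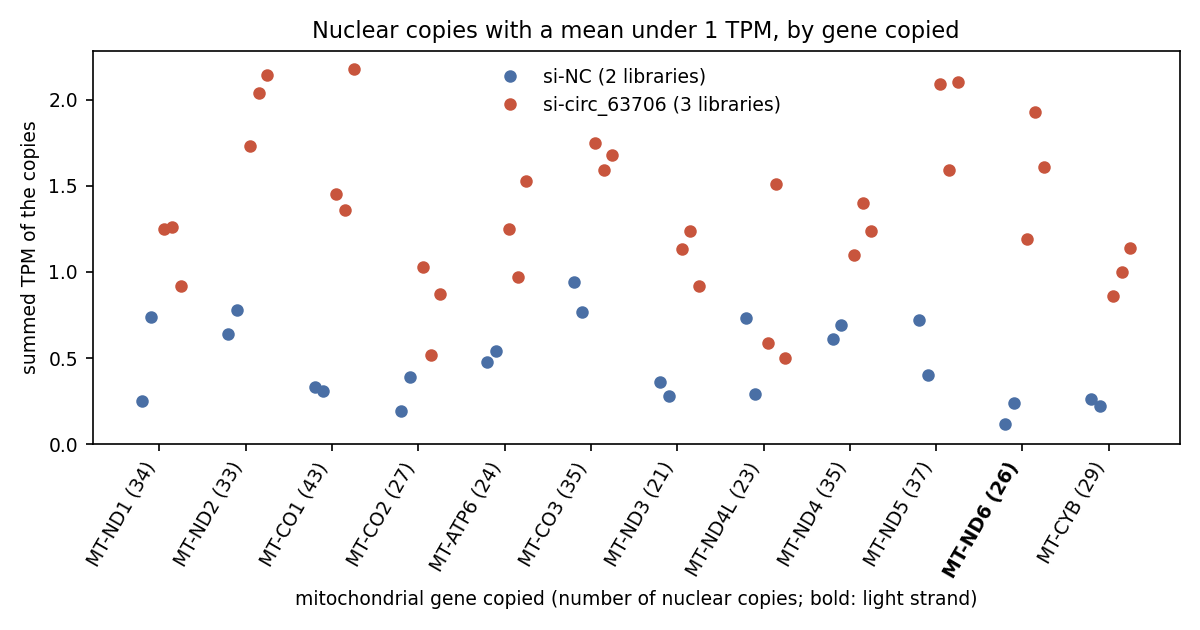
Summed TPM of nuclear copies with a mean under 1 TPM, by the mitochondrial gene copied (the number of copies in parentheses), with 1 point per library. The copies of MT-ND6 sum to 0.12 and 0.24 TPM under si-NC against 1.19 to 1.93 TPM under si-circ_63706. The copies of MT-CO1 also lie apart, and those of MT-ND4L overlap.

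Nuclear genes that act on the mitochondrial genome and its RNA were not used to choose the 37 genes and were tested with limma over all 12710 genes. They were taken in 3 lists written from general knowledge, of 18, 30 and 9 genes, and all 57 were listed and tested. At an adjusted p under 0.05, 24 of the 57 were lower with si-circ_63706, 1 was higher and 32 did not pass. The share of lower genes, 42.1%, stands beside 35.4% of all genes, and the median of the 57 was -0.19 beside -0.16. After centring, 10 were lower, or 17.5% beside 13.7% of all genes, and TFAM, TFB2M and SLIRP were higher.

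In the list for transcription and replication of mitochondrial DNA, 11 of 18 genes fell, 1 rose and 6 did not pass, with a median log2 fold change of -0.23. The share of lower genes was 61.1% beside 35.4% of all genes, and after centring it was 16.7% beside 13.7%. POLRMT, the polymerase that transcribes both strands, fell from 22.9 and 23.1 TPM to 19.8, 18.5 and 20.2 TPM, a log2 fold change of -0.23 (standard error 0.0537, limma adjusted p = 0.0183). After centring its log2 fold change was -0.07 with an adjusted p of 0.353. TFAM, which packages mitochondrial DNA and bends it at the promoters, was the gene that rose, from 15.4 and 17.3 TPM to 18.4, 19.6 and 18.7 TPM. Its log2 fold change was 0.20 (standard error 0.0626) with a limma adjusted p of 0.0458, and the call was lost whichever of the 5 libraries was omitted. After centring it was 0.36 with an adjusted p of 0.00888. TFB2M, which opens the promoter with POLRMT, had a log2 fold change of 0.05 (adjusted p = 0.449), and 0.21 after centring (adjusted p = 0.0141). TEFM, the elongation factor, had a log2 fold change of 0.04 (adjusted p = 0.637).

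The largest falls of this list were those of MRPL12, a ribosomal protein that also binds POLRMT, from 14.7 and 15.4 TPM to 10.8, 10.5 and 9.60 TPM (log2 fold change -0.50, standard error 0.0631, limma adjusted p = 0.00256), and of POLG, the replicative DNA polymerase, from 5.36 and 5.60 TPM to 3.70, 3.76 and 4.10 TPM (-0.42, adjusted p = 0.00477). MTERF2, MTERF3 and TOP1MT, members of the termination factor family and the mitochondrial topoisomerase, had log2 fold changes of -0.37, -0.35 and -0.34. After centring MRPL12, POLG and TOP1MT were still called lower, at -0.35, -0.26 and -0.19, and MTERF2 and MTERF3 were not. Each omitted library left fewer of the 18 genes called, with 9 without si-circ_63706 library 1 and 11 without si-circ_63706 library 3. The count fell most without si-NC library 1, si-NC library 2 or si-circ_63706 library 2, with 6 called without the last. Fewer were also called over all genes in each of these fits. Without si-circ_63706 library 2, 350 of all genes were called higher and 3396 lower, beside 529 and 4504 with all libraries. POLRMT lost its call without any of these 3 libraries, MTERF2 without them or si-circ_63706 library 1, MTERF3 without either si-NC library and TOP1MT without si-NC library 2.

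In the list for processing and modification of mitochondrial RNA, 11 of 30 genes fell and 19 did not pass, with a median of -0.17. Lower genes made up 36.7% beside 35.4% of all genes, and 23.3% beside 13.7% after centring. Of the enzymes that cut tRNAs out of the precursors, TRMT10C and PRORP (listed as KIAA0391), subunits of the RNase P that cuts at the 5′ end, had log2 fold changes of -0.02 and -0.08 (limma adjusted p = 0.847 and 0.382), and ELAC2, the RNase Z that cuts at the 3′ end, had 0.0047 (adjusted p = 0.964). HSD17B10, the remaining RNase P subunit, named after its values were seen, fell from 30.8 and 31.7 TPM to 28.4, 28.02 and 28.6 TPM (log2 fold change -0.14, limma adjusted p = 0.0448), and it was at 0.02 after centring (adjusted p = 0.708). FASTK, which is known to be needed for the maturation of MT-ND6 mRNA, fell from 24.6 and 23.9 TPM to 19.6, 19.6 and 18.3 TPM, a log2 fold change of -0.32 (standard error 0.0516, limma adjusted p = 0.00515). After centring FASTK was at -0.17 with an adjusted p of 0.0938.

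The largest fall of this list was that of PDE12, which removes poly(A) tails, from 6.60 and 6.71 TPM to 3.79, 4.52 and 4.26 TPM (log2 fold change -0.56, standard error 0.0750, limma adjusted p = 0.00302), and GTPBP3, a tRNA-modifying enzyme, fell from 6.12 and 5.50 TPM to 3.37, 3.90 and 3.77 TPM (-0.54, adjusted p = 0.00375). TBRG4, a relative of FASTK, MRM2, a methyltransferase of the large rRNA (listed as FTSJ2), and PUS1, a pseudouridine synthase, had log2 fold changes of -0.48, -0.47 and -0.41. These 5 genes were called lower after centring as well, at -0.40, -0.38, -0.32, -0.32 and -0.25.

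In the list for stability and decay of mitochondrial RNA, 2 of 9 genes fell and 7 did not pass, with a median of -0.10. Lower genes made up 22.2% beside 35.4% of all genes, and 0% beside 13.7% after centring. LRPPRC, which binds heavy-strand mRNAs and protects them together with SLIRP, fell from 37.4 and 36.0 TPM to 32.2, 31.2 and 32.4 TPM, a log2 fold change of -0.19 (standard error 0.0451, limma adjusted p = 0.0174) that was -0.03 after centring (adjusted p = 0.584). SLIRP had a log2 fold change of 0.01 (adjusted p = 0.843), and 0.17 after centring (adjusted p = 0.00741). TACO1, a translational activator of MT-CO1, was the other gene that fell, at -0.28 (limma adjusted p = 0.00708), and it was not called after centring. LRPPRC lost its call without either si-NC library or si-circ_63706 library 2, and TACO1 without si-NC library 1. The genes of the degradosome and its partner, which remove light-strand antisense RNA, did not pass. SUPV3L1, the helicase, had 7.68 and 7.04 TPM under si-NC against 7.24, 6.56 and 7.59 TPM under si-circ_63706, and PNPT1, the nuclease, had 12.98 and 13.96 TPM against 12.7, 13.4 and 14.9 TPM. In each of them the groups overlapped, with limma adjusted p values of 0.685 and 0.862. GRSF1, which binds G-rich RNA such as that of the light strand, had 17.5 and 18.0 TPM under si-NC against 16.7, 16.4 and 16.5 TPM under si-circ_63706, at a log2 fold change of -0.10 (limma adjusted p = 0.132).

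**Figure D5:**
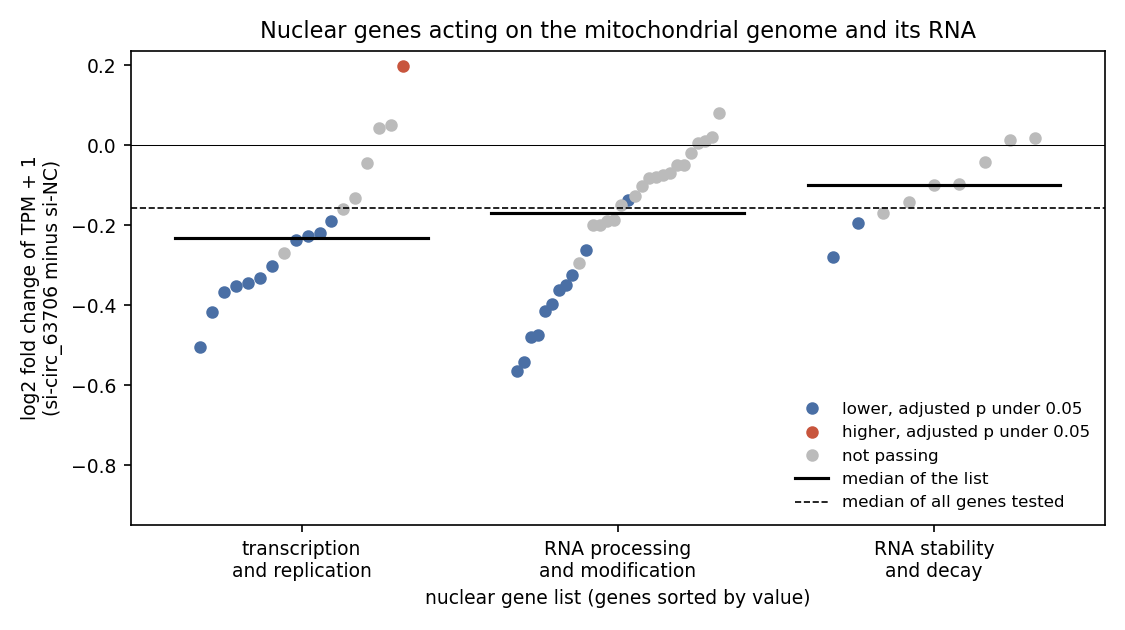
Log2 fold change of TPM + 1 of 57 nuclear genes in 3 lists, 1 point per gene, coloured by the limma call, with the median of each list (line) and of all genes tested (dashed). The medians of -0.23, -0.17 and -0.10 lie around the median of all genes at -0.16, and TFAM is the gene called higher.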

How the data were processed

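Total RNA of DAOY cells was sequenced in 2 si-NC and 3 si-circ_63706 libraries, grouped by their labels, and all 5 were used. The authors deposited 1 table of TPM per gene, with 2 decimals. Per the submitters' processing notes, cutadapt 2.3, STAR 2.7.0d, RSEM 1.3.1 and hg38 were used, and the annotation, strand setting and filters are not given in the sources used here. No counts are in the table, so no counting intervals were computed. Positions and strands came from GENCODE 29 on GRCh38, to which 56996 of 60504 genes matched, and sequences from the transcript sequences of that release. Pseudogenes were chosen by the gene names and gene types of the authors' table.

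Genes with a mean of at least 1 TPM were fitted with limma 3.58.1 in R 4.3.3 on log2(TPM + 1), without covariates. Moderation followed the mean-variance trend, and two-sided p-values were adjusted by Benjamini-Hochberg with a threshold of 0.05. The p-values measure only the spread between these libraries, whose culture of origin is not stated. Centring used genes with a mean of at least 10 TPM. The alternatives were a pseudocount of 0.1, no minimum or a minimum of 5 TPM, centring, quantile normalization, protein-coding genes alone, no trend, a replicate block, other denominators and leaving out each library. Python 3.11.15 with numpy 2.4.6, pandas 2.3.3, Biopython 1.88 and matplotlib 3.10.9 was used.

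The mitochondrial genes, gene lists and tests were chosen with earlier results of these data known. All 15 mitochondrial genes with values were named, together with the 8 light-strand tRNAs. Of the nuclear lists, 13 genes were named whatever their values, with the 5 largest changes per list among genes passing the threshold. Of the pseudogenes, the one with the highest mean TPM over all 5 libraries was named by this rule. HSD17B10, MTCO1P12, MTCO2P12, MTCO3P12, MTND2P28 and MTATP8P1 were named outside it, after their values were seen.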

Additional observations from a re-analysis of the deposited data

How the results depend on the processing

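Because TPM have no counts, depth cannot be weighed, and the light strand rests on MT-ND6 alone. The planned ratio of light-strand to heavy-strand tRNAs was not run, since every tRNA was listed at 0. MT-ND6 had a higher log2 fold change than all 12 heavy-strand mRNAs in the main fit and under every alternative fit. Its log2 fold change was 1.15 with centring, 1.16 with quantile normalization and 1.17 with protein-coding genes alone, and the median of the heavy-strand mRNAs was 0.68, 0.63 and 0.68. MT-CO1 was at -0.07 with quantile normalization. The log2 difference of the ratio of MT-ND6 to heavy-strand mRNAs, 0.84, became 0.46 with the median in place of the sum, 1.01 with quantile normalization, 0.47 over MT-ND5 and MT-CYB, 0.88 without the overlapping genes and, chosen after seeing the data, 0.46 without complex IV. It was 0.81 to 0.87 with each library left out. The share of TPM rose by 0.111 percentage points (0.103 to 0.122 with each library left out), and as a share of protein-coding genes by 0.500.

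Of all genes, 529 were called higher and 4504 lower. The counts were 292 and 2597 with no minimum TPM, 1671 and 1737 with centring, 1584 and 1682 with quantile normalization, and 1591 and 2419 with protein-coding genes alone. With each library left out, 208 to 578 were higher and 1960 to 4289 lower. The fewest were called without si-NC library 1, at 208 and 1960, and 224 and 2091 were called without si-NC library 2, which leaves a lone si-NC library assumed to vary like the others. Without si-circ_63706 library 2, 350 were higher. In the transcription and replication list, 12 calls became 4 with no minimum, 5 with centring, 4 with quantile normalization and 7 with protein-coding genes alone, and 2 to 11 with each library left out (3 without si-NC library 1, 2 without si-NC library 2, 6 without si-circ_63706 library 2). In the processing list, 11 calls became 7 with centring, quantile normalization and protein-coding genes alone, and 8 to 11 with each library left out. In the stability list, 2 limma calls became 1 with no minimum, centring and protein-coding genes alone, 0 with quantile normalization (3 at an unadjusted p under 0.05), and 0 to 2 with each library left out (0 without si-NC library 1, where 2 passed unadjusted, and 1 without si-NC library 2 or si-circ_63706 library 2). The cause of these moves was not tested. Replicate numbers 1 and 2 occur in both groups, but the deviations of same-numbered libraries correlated at 0.014 and 0.026, so the numbers were not taken to pair them. With a replicate block, in which si-circ_63706 library 3 has no partner and adds nothing to the difference, 325 genes were higher and 3560 lower, and the log2 fold change of MT-ND6 was 0.97.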

Other observations

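Of 13 nuclear genes named as relatives of MT-RNR2, 10 were listed above 0 in at least 1 library, and the highest value among them was 0.57 TPM, so the values of MT-RNR2 stood far above those of its annotated nuclear relatives in every library. In the chromosome 1 stretch that holds MTATP6P1, the copies MTCO2P12 and MTCO3P12 had means of 1.83 and 1.35 TPM under si-NC against 2.07 and 1.45 TPM under si-circ_63706. By library, MTCO2P12 had 1.59 and 2.07 TPM under si-NC against 1.94, 1.96 and 2.32 TPM under si-circ_63706. MTCO3P12 had 1.43 and 1.27 TPM against 1.23, 1.16 and 1.96 TPM, so the groups overlapped for both copies. MTND2P28, in the same stretch, is 98.4% identical to MT-ND2 and had 0.36 and 0.44 TPM under si-NC against 0.48, 0.69 and 0.62 TPM under si-circ_63706, while MTATP8P1 was listed at 0 in all 5 libraries. These copies were named after their values were seen, and no explanation was tested.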
